A study of Mus musculus with 4 samples.

Results

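Carriers of glucose and lactate were described across the cell types of mouse testicular organoids (TOs) and mouse testes. The genes were chosen by name and matched to the gene symbols of the count matrices, and they are 6 of the 32285 genes measured. Slc2a1 and Slc2a3 encode the glucose transporters GLUT1 and GLUT3. Slc16a1 and Slc16a3 encode MCT1 and MCT4, which carry lactate and pyruvate together with a proton. Bsg (basigin) and Emb (embigin) encode membrane glycoproteins that escort these lactate carriers to the cell surface. In the mouse genome (GRCm38) Slc2a1 lies on chromosome 4 at 119108711 to 119137983, Slc2a3 on chromosome 6 at 122727809 to 122801640 (minus strand), Slc16a1 on chromosome 3 at 104638668 to 104658462, Slc16a3 on chromosome 11 at 120948480 to 120960868, Bsg on chromosome 10 at 79704491 to 79711969 and Emb on chromosome 13 at 117208536 to 117274415, all but Slc2a3 on the plus strand.

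In the seminiferous epithelium, Sertoli cells are known to take up glucose, turn most of it into lactate and release the lactate, which spermatocytes and spermatids behind the blood-testis barrier use as fuel. MCT4 is known as a lactate exporter of glycolytic tissues, whereas MCT1 moves lactate in either direction along its gradient. The related carrier Slc16a7 (MCT2) is known as a high-affinity importer. GLUT1 also marks the endothelium of blood-tissue barriers, and male mice that lack basigin are infertile.

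The single-cell RNA-seq data (10x Genomics, 3′ chemistry) covered 2 TO libraries and 2 testis libraries. TOs had been built from dissociated testicular cells of 6-day-old ICR mice that reaggregated in microwells and were then embedded in basement membrane extract and cultured at 34 °C, so every TO cell type descends from cells of the immature testis. The series gives the TOs as 28 days old, whereas the dissociation protocol in the labels names day 21. The testes came from 28-day-old mice. The study names ICR for its mouse experiments other than chimeric TOs, though at 6 days of age, and the number of testis donors is not given in the sources used here. The study states that the TOs came from 2 independent batches, but not which library holds which, and p-values below measure the spread between these libraries only.

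The libraries held 11826 to 14643 barcodes and 74988295 to 119966959 UMIs (unique molecular identifiers, counts of captured RNA molecules). After filtering, 9802 and 8713 TO cells and 9867 and 9516 testis cells were kept, with 6654 and 8257 UMIs per TO cell and 4554 and 4916 per testis cell on average. Pairs of libraries shared 30 to 55 of their barcodes. Clusters were named from fixed markers of 13 cell types, and the 6 genes were left out of the genes used for clustering. Between 18.9% and 36.4% of the cells of a library stayed unnamed. UMIs were summed per library and cell type and scaled to CPM, which gives a gene's share of all UMIs of the sum, and values are given for replicate 1 and then replicate 2. The TO cells that scored as endothelial had Pecam1 and Cldn5, which define endothelium, at 0 in both libraries. Their cluster, testis cells included, held 7 endothelial markers. That class is described in testes only, so 11 cell types are compared between TOs and testes below. In its TO cells Slc2a1 stood at 42.5 and 28.6 CPM, Bsg at 1519 and 1900 CPM and Emb at 141 and 54.4 CPM. The edgeR test planned for it gave Slc2a1 a log2 fold change of -2.94 (TOs minus testes, adjusted p = 3.0e-05) and Emb 4.62 (adjusted p = 0.000801), neither counted below.

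RNA of spermatids was found in the other cell types of the testes. The summed level of 12 haploid genes, such as Prm1, Tnp1 and Acrv1, was 2173 to 7236 CPM in the testis types from Leydig cells to leptotene and zygotene spermatocytes, against 0 to 22.5 CPM in the same types of TOs. In testis Sertoli cells it was 3878 and 40948 CPM. The second value came from 2 clusters of 29 and 31 cells of testis replicate 2, in which these genes reached 99982 and 182282 CPM. Sertoli values are therefore also given without cells in which the haploid genes take over 2% of UMIs, which left out 14 of 477 and 61 of 175 testis cells and 0 TO cells. The limit kept most of a cluster of 139 cells of testis replicate 1, in which the haploid genes stood at 15168 CPM. That cluster had Slc16a1 at 3.36 CPM and Emb at 90.8 CPM, against 123 and 280 CPM in the largest Sertoli cluster of the library.

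**Figure D1:**
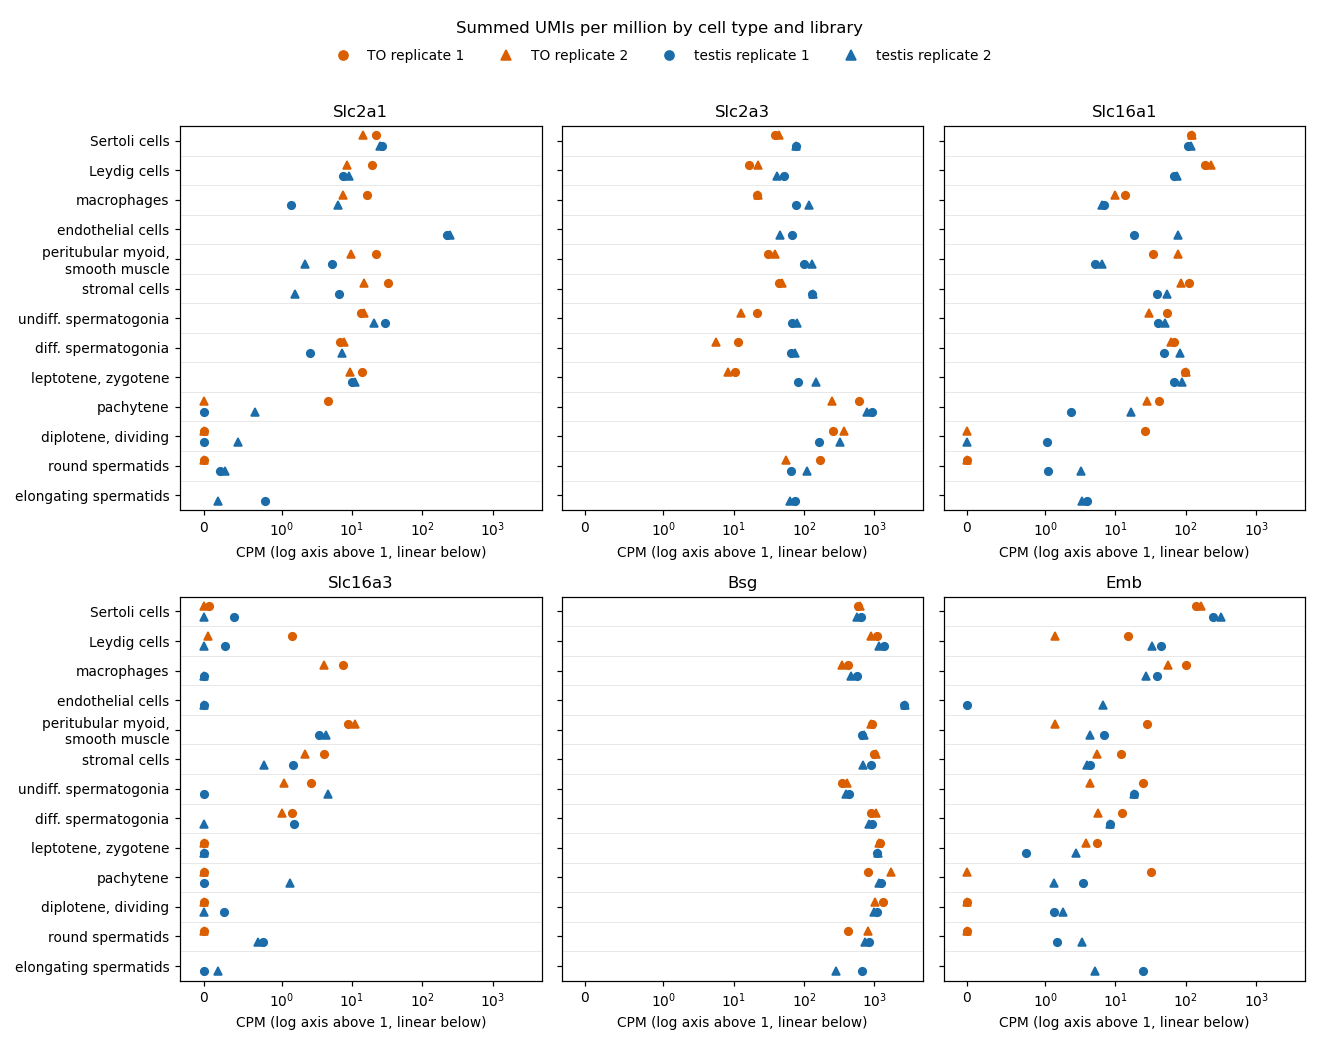
CPM of the 6 genes in each cell type, with 1 point per library (orange TOs, blue testes, circles replicate 1, triangles replicate 2). The axis is logarithmic above 1 CPM, and sums of under 10 cells and the TO endothelial class are left out. Slc2a1 stood highest in testis endothelial cells (225 and 250.3 CPM), Slc2a3 in pachytene spermatocytes and Emb in Sertoli cells.

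Sertoli cells, the presumed source of lactate, expressed Slc16a1, Bsg and Emb, while Slc16a3 was almost undetected. Slc16a1 stood at 120.3 and 123 CPM in TO Sertoli cells and at 106 and 117 CPM in testis Sertoli cells. The TO libraries were both slightly higher than the testis libraries, with a log2 fold change of 0.16 ± 0.17 (SE, n = 2 libraries against 2; edgeR adjusted p = 0.483). Slc16a3 had 0.0707 and 0 CPM in TO Sertoli cells and 0.384 and 0 CPM in testis Sertoli cells, too few UMIs to be tested.

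Both escort genes were detected. Bsg was at 594 and 629 CPM in TO Sertoli cells and at 651 and 576 CPM in testis Sertoli cells, so that the ranges overlapped (log2 fold change 0.03 ± 0.16, edgeR adjusted p = 0.889). Emb was at 140.5 and 164 CPM in TOs and at 248 and 321 CPM in testes. Both TO libraries were below both testis libraries, and the difference missed the threshold (log2 fold change -0.87 ± 0.23, edgeR adjusted p = 0.0283, where a call needed an adjusted p under 0.01 and a change of more than 1 on the log2 scale in either direction).

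For the uptake of glucose, Slc2a1 stood at 21.9 and 14.2 CPM in TO Sertoli cells and at 26.5 and 25.3 CPM in testis Sertoli cells (log2 fold change -0.48 ± 0.27, edgeR adjusted p = 0.202). Slc2a3 stood at 39.0 and 43.6 CPM in TOs and at 76.5 and 77.5 CPM in testes (log2 fold change -0.86 ± 0.18, edgeR adjusted p = 0.0147). Both genes were lower in both TO libraries, and neither passed the test.

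In Sertoli cells, 0 of the 5 genes tested were thus called by edgeR, where 23.9% of all 14564 genes tested were called. DESeq2 also called 0, and 2 genes had an unadjusted edgeR p below 0.05. Their median log2 fold change was -0.48, against 0.01 over all genes tested. Emb was called only when testis replicate 1 was left out (log2 fold change -1.12), and 0 of the 5 were called without the cells rich in haploid genes, which moved Emb of the testes to 250.2 and 419 CPM and Slc16a1 to 107 and 152 CPM. Most TO Sertoli cells lay in cluster 8 (909 and 471 cells) and most testis Sertoli cells in clusters 23 (238 cells of replicate 1) and 30 (102 cells of replicate 2), so the levels compare cells that clustered apart.

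**Figure D2:**
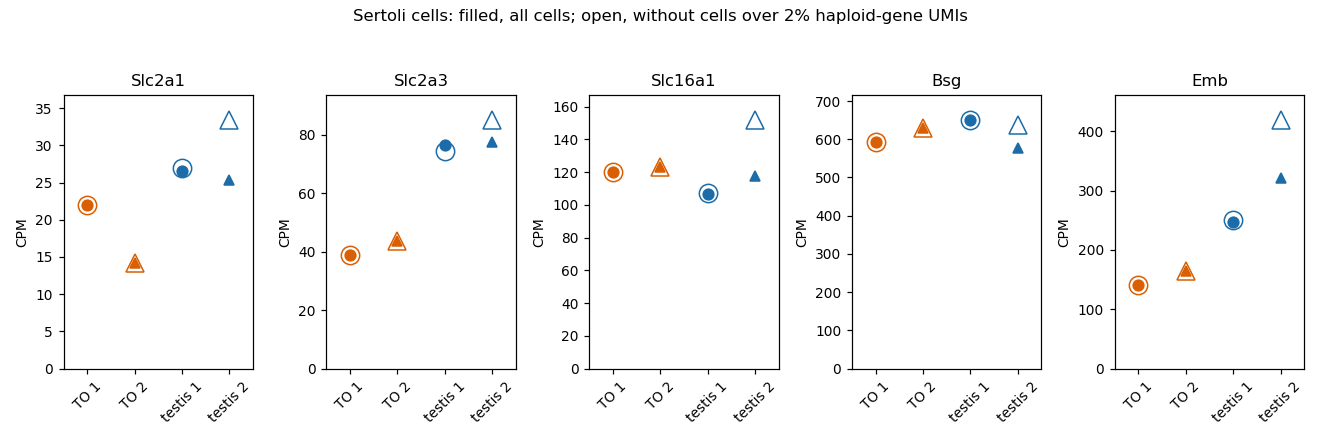
CPM in Sertoli cells of each library, on a linear axis from 0 for each gene. Filled symbols show all Sertoli cells and open symbols those left without cells over 2% haploid-gene UMIs. Slc2a3 and Emb were lower in both TO libraries than in both testis libraries, and only testis replicate 2 moved visibly between filled and open symbols.

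Emb was concentrated in Sertoli cells under both conditions. Sertoli cells held 68.1% and 70.6% of the Emb UMIs of the TO cells and 62.4% and 55.7% of those of the testis cells, whereas they held 21.7% and 10.3% of all UMIs in TOs and 5.79% and 2.95% in testes. Thinned to 1500 UMIs a cell, 15.1% and 19.1% of TO Sertoli cells and 27.0% and 26.9% of testis Sertoli cells had an Emb UMI. In testis round spermatids the same share was 0.441% and 0.815%. The exact 95% intervals, which cover counting error only, were 13.3% to 17.1% and 16.3% to 22.1% in TO Sertoli cells and 23.1% to 31.3% and 20.4% to 34.1% in testis Sertoli cells.

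Along the germ line of the testes, Slc16a1 was highest in spermatogonia and early spermatocytes and fell sharply at the pachytene stage. It stood at 40.3 and 50.9 CPM in undifferentiated spermatogonia, the stem and progenitor cells, and at 49.0 and 82.8 CPM in differentiating spermatogonia. It stood at 69.1 and 89.0 CPM in leptotene and zygotene spermatocytes, which begin meiosis, then at 2.30 and 16.6 CPM in pachytene spermatocytes. The log2 difference between these last 2 stages was -2.98 ± 0.46 (SE; edgeR on all sums together, adjusted p = 1.48e-06), and it was -2.03 without testis replicate 1 and -4.47 without testis replicate 2, called in both. Diplotene and dividing spermatocytes had 1.06 and 0 CPM, round spermatids 1.11 and 3.19 CPM and elongating spermatids 3.93 and 3.31 CPM.

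Slc2a1 also fell at the pachytene stage. It stood at 29.3 and 20.8 CPM in undifferentiated spermatogonia, at 2.50 and 7.25 CPM in differentiating spermatogonia and at 9.88 and 11.0 CPM in leptotene and zygotene spermatocytes. From the pachytene stage on, no testis library exceeded 0.787 CPM. The fall from undifferentiated to differentiating spermatogonia (-2.62 ± 0.55, edgeR adjusted p = 0.0011) was lost without testis replicate 1 (-1.54, adjusted p = 0.547). The fall into the pachytene stage was -4.69 ± 0.91 (edgeR adjusted p = 6.62e-05), and -3.59 without testis replicate 1 (adjusted p = 0.0187).

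Slc2a3 rose where Slc16a1 fell, and peaked in pachytene spermatocytes, the cells in mid-meiotic prophase. It stood at 936 and 785 CPM there, against 83.6 and 148 CPM in leptotene and zygotene spermatocytes, a log2 difference of 3.14 ± 0.34 (edgeR adjusted p = 8.33e-10). Both pachytene libraries exceeded every other type of the testes, and 69.1% and 59.9% of pachytene cells thinned to 1500 UMIs had a Slc2a3 UMI. Pachytene spermatocytes held 24.1% and 14.3% of the Slc2a3 UMIs of the testis cells with 3.86% and 3.23% of all UMIs. The unnamed cells of the testes held 35.9% and 43.2% with 21.8% and 18.2% of all UMIs. Among them were germ clusters at 570 and 925 CPM, at 484 and 735 CPM and at 354 and 722 CPM. The cluster at 484 and 735 CPM (240 and 311 cells) scored 0.726 for pachytene and 0.713 for diplotene and dividing spermatocytes. High Slc2a3 was thus not limited to the cells named pachytene.

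After the pachytene stage Slc2a3 declined to 161 and 321 CPM in diplotene and dividing spermatocytes, 66.2 and 112 CPM in round spermatids and 75.5 and 64.0 CPM in elongating spermatids. The first step (-1.63 ± 0.32, edgeR adjusted p = 5.42e-05) was -0.62 without testis replicate 1 (adjusted p = 0.193), -0.28 without Harmony and -0.03 when cells above 5000 genes or 20000 UMIs were kept. The second step (-1.27 ± 0.32, edgeR adjusted p = 0.00229) lost its call without either testis library or TO replicate 1, at -0.73 to -1.08.

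Bsg was expressed at every stage. It stood at 435 and 394 CPM in undifferentiated spermatogonia and at 935 and 850.0 CPM in differentiating spermatogonia, a log2 difference of 1.12 ± 0.29 (edgeR adjusted p = 0.00827). This call was lost without TO replicate 1 or either testis library, at 1.02 to 1.09. Bsg reached 1239 and 1186 CPM in pachytene spermatocytes and 835 and 733 CPM in round spermatids, and no later step between neighbouring stages was called. Emb stayed at or below 18.5 CPM at every stage but elongating spermatids of testis replicate 1 (24.4 CPM, with 5.14 CPM in replicate 2), where the step from round spermatids (1.46 and 3.33 CPM) was 3.12 ± 0.56 (edgeR adjusted p = 1.96e-05; 2.26 with scaling to total UMIs). In testis replicate 2, 119 cells that first scored as elongating spermatids were led by Gm9112, Rhox5 and other genes that also led Sertoli clusters. They were then clustered again with the germ cells. The part of Sertoli RNA in the Emb step was not tested.

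Counted by step, 2 of the 6 genes were called between the kinds of spermatogonia (4.32% of 18617 genes), 0 from differentiating spermatogonia to leptotene and zygotene spermatocytes (9.66%; 3 had an unadjusted edgeR p below 0.05), 3 into pachytene (23.5%), 2 into diplotene (30.6%), 1 into round spermatids (14.3%) and 2 into elongating spermatids (26.0%). The step of Slc16a1 into the diplotene stage (-3.29 ± 0.77) rested on a testis library with 0 UMIs and was -0.10 without testis replicate 2 and -1.33 without Harmony (adjusted p = 0.138). Its step into elongating spermatids (1.87 ± 0.50) was 1.40 without testis replicate 2 (adjusted p = 0.311) and 0.60 with scaling to total UMIs (adjusted p = 0.343), and both groups stood below 4 CPM.

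**Figure D3:**
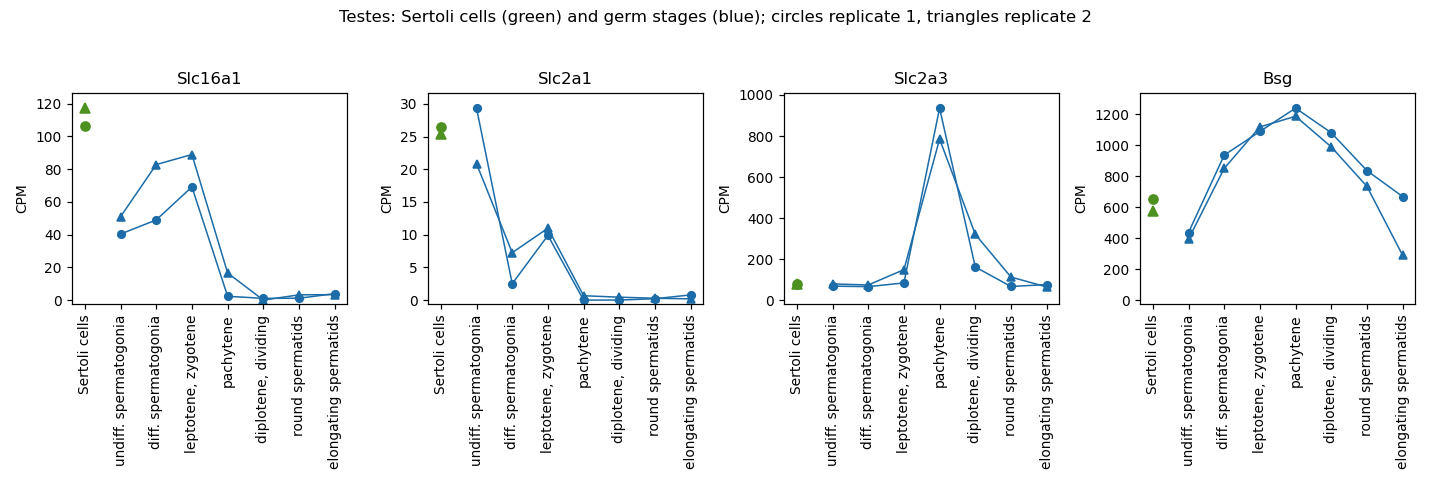
CPM in Sertoli cells (green) and in the germ stages of the testes in order of development (blue), with 1 line per library on a linear axis. Slc16a1 and Slc2a1 dropped between the leptotene and zygotene stage and pachytene, Slc2a3 peaked in pachytene spermatocytes at 936 and 785 CPM, and Bsg was above 280 CPM at every stage.

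Sertoli cells and germ stages of the same testes were then compared in 1 fit. Emb was higher in Sertoli cells than in each of the 7 stages, by 3.41 to 7.38 on the log2 scale. Slc16a1 was higher in Sertoli cells than in undifferentiated spermatogonia (1.57 ± 0.41, edgeR adjusted p = 0.00184; 1.53 and 0.0149 without testis replicate 1) and than in each stage from pachytene on (3.56 to 7.02). The sizes of these last differences rested on few UMIs in the late stages, and leaving out 1 library moved them to between 2.60 and 5.20 for pachytene and between 5.30 and 11.61 for diplotene spermatocytes, where testis replicate 2 held 0 UMIs. It was not called against differentiating spermatogonia (1.102 ± 0.37, adjusted p = 0.0167) or leptotene and zygotene spermatocytes (0.75 ± 0.37, adjusted p = 0.111). Slc2a3 was higher in pachytene spermatocytes than in Sertoli cells, with a log2 difference of -3.49 ± 0.35 (Sertoli minus pachytene, edgeR adjusted p = 1.65e-11).

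Slc2a1 was higher in Sertoli cells than in each stage from differentiating spermatogonia on (1.52 to 6.70, of which those from pachytene and diplotene spermatocytes moved between 4.88 and 9.45 when 1 library was left out, on 0 and 1 UMIs a sum), and was not called against undifferentiated spermatogonia (0.24 ± 0.43, edgeR adjusted p = 0.707). Its difference from leptotene and zygotene spermatocytes (1.52 ± 0.44, adjusted p = 0.00442) was lost without TO replicate 1, either testis library or the cells rich in haploid genes, at 1.38 to 1.53, and that from differentiating spermatogonia (2.86 ± 0.51) without testis replicate 1 (2.15, adjusted p = 0.0103). Against the stages in order, 2, 2, 2, 4, 5, 3 and 4 of the 6 genes were called, where 26.1%, 28.0%, 28.9%, 37.1%, 53.1%, 60.7% and 58.4% of all genes were. The joint scaling (TMM) moved elongating spermatids by up to 2.01 on the log2 scale, and with scaling to total UMIs the difference of Slc2a3 between Sertoli cells and elongating spermatids went from -1.21 to 0.17 (adjusted p = 0.683). Under the same change Bsg, called between Sertoli cells and diplotene spermatocytes at -1.04 ± 0.28, went to -0.755 and was not called, and Slc2a1 against leptotene and zygotene spermatocytes went to 1.32 (adjusted p = 0.0153).

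Slc2a3 was detected in every cell type of the testes, at 41.2 to 148 CPM outside the stages from pachytene to round spermatids. Its counts were set beside those of Ldhc, the lactate dehydrogenase of meiotic and later germ cells. In testis replicate 1, the Sertoli, Leydig, macrophage, endothelial, peritubular, stromal, spermatogonial and leptotene and zygotene sums held 4.0 to 6.4 Slc2a3 UMIs per 100 Ldhc UMIs, and all barcodes of the library together held 4.4. In testis replicate 2 the same sums held 5.92 to 13.04, with 8.8 over all barcodes. The ratios of these types thus lay on both sides of that of their whole library, and the libraries differed from each other. In testis replicate 2 Sertoli cells were lowest at 5.92, and leptotene and zygotene spermatocytes were highest at 13.04.

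Pachytene spermatocytes stood apart, with 19.5 and 18.8 Slc2a3 UMIs per 100 Ldhc UMIs, and round spermatids held 1.2 and 2.7. In TOs Ldhc was at 20.6 to 99.7 CPM in the somatic types and early germ stages, against 500.3 to 2610.3 CPM in testes, and Slc2a3 had 13.9 to 187 UMIs per 100 of Ldhc.

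**Figure D4:**
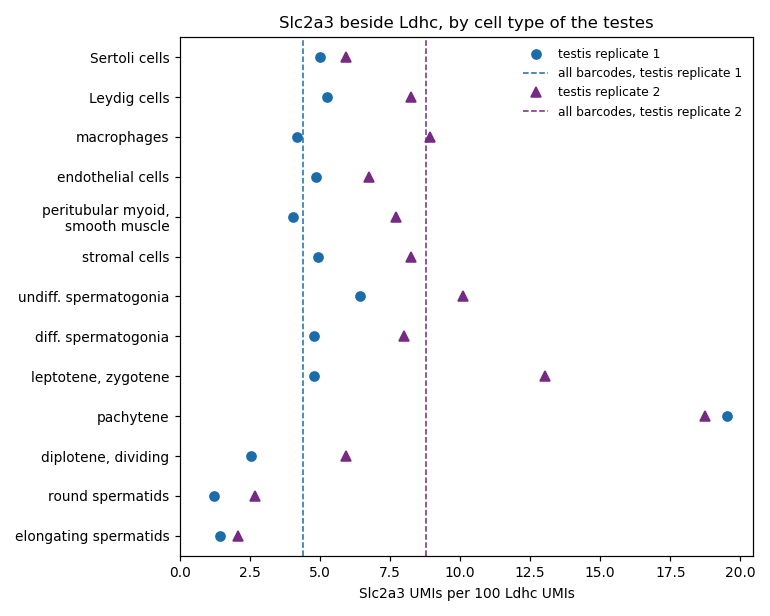
Slc2a3 UMIs per 100 Ldhc UMIs in each cell type of the 2 testis libraries. Dashed lines mark the ratio over all barcodes of each library (4.4 and 8.8). The somatic types and early germ stages lie on both sides of the line of their library, pachytene spermatocytes lie above at 19.5 and 18.8, and spermatids lie below.

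Between TOs and testes, Slc2a3 had the most calls of the 6 genes. It was called lower in TOs in 6 of the 11 types, with a median log2 fold change of -1.40 over the types. These types come from the same 4 libraries. In leptotene and zygotene spermatocytes it stood at 10.4 and 8.41 CPM in TOs and at 83.6 and 148 CPM in testes, and fell by 3.66 ± 0.36 on the log2 scale (edgeR adjusted p = 2.62e-05). In differentiating spermatogonia it stood at 11.6 and 5.58 CPM in TOs and at 65.5 and 73.5 CPM in testes (log2 fold change -3.00 ± 0.31, edgeR adjusted p = 3.65e-05).

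The other 4 calls of Slc2a3 were in undifferentiated spermatogonia (-2.10 ± 0.32), macrophages (-1.97 ± 0.31), peritubular myoid and smooth muscle cells (-1.70 ± 0.32) and stromal cells (-1.40 ± 0.20). Of all genes, 14.4% were called lower in leptotene and zygotene spermatocytes, 12.5% in differentiating and 8.52% in undifferentiated spermatogonia, 16.3% in macrophages, 19.0% in peritubular and 15.5% in stromal cells. In these types of the testes Slc2a3 had 4.04 to 6.42 UMIs per 100 of Ldhc in replicate 1 and 7.72 to 13.04 in replicate 2. Over all barcodes these libraries held 4.4 and 8.8. Haploid genes stood at 2341 to 7236 CPM in these types of the testes against 0 to 22.5 CPM in TOs. When a background was subtracted, 0 of the 6 calls remained, with log2 fold changes of -0.51 to -3.30. It was the profile of all barcodes of the library, scaled by haploid genes in the testis sums. In the TO sums of macrophages, spermatogonia and leptotene and zygotene spermatocytes it was scaled by fibrillar collagen genes. The estimates differed between testis replicates 1 and 2. They were 42.2% and 12.1% of UMIs in macrophages and 37.5% and 8.80% in leptotene and zygotene spermatocytes. Under that setting 0 to 50 genes in all were called in each of the 6 types. Because nearly every call of any gene was lost, it cannot decide on Slc2a3.

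In pachytene spermatocytes themselves, Slc2a3 stood at 614 and 249 CPM in TOs and at 936 and 785 CPM in testes. Both TO libraries were lower, and the difference was not called (log2 fold change -1.22 ± 0.53, edgeR adjusted p = 0.156), with 55 and 15 TO cells behind it. Ldhc stood at 830 and 795 CPM in these TO cells and at 4792 and 4186 CPM in testes. Whether the cells match in stage was not tested. In TO replicate 1, 32 of the 55 cells lay in 1 cluster with Slc2a3 at 968 CPM. The same cluster stood at 1046 and 1294 CPM in testes, where another pachytene cluster stood at 331 and 502 CPM. The levels thus also depend on the mix of pachytene clusters. Without TO replicate 1 the log2 fold change of Slc2a3 was -1.99. In TOs too, pachytene and diplotene spermatocytes had the highest Slc2a3 levels of all types, and leptotene and zygotene spermatocytes and differentiating spermatogonia the lowest.

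No gene but Slc2a3 was called between TOs and testes in germ cells. Slc16a1 stood at 98.4 and 99.6 CPM in TO leptotene and zygotene spermatocytes and at 69.1 and 89.0 CPM in those of testes (log2 fold change 0.30 ± 0.25, edgeR adjusted p = 0.438). In TO pachytene spermatocytes it had 9 and 3 UMIs (41.3 and 27.7 CPM), against 4 and 25 UMIs in testes (2.30 and 16.6 CPM), a difference that missed the threshold (1.72 ± 0.88, edgeR adjusted p = 0.223; pooled ratio 4.12, exact 95% counting interval 1.91 to 8.31). Round spermatids of TOs had 0 UMIs of Slc16a1 in sums of 23598 and 35489 UMIs, which allows up to 127 and 84.5 CPM, so a level like that of the testes was not detectable at this depth. Bsg in leptotene and zygotene spermatocytes was at 1225 and 1167 CPM in TOs and at 1088 and 1117 CPM in testes (0.09 ± 0.27, edgeR adjusted p = 0.849).

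Of the germ stages, 1 of 5, 1 of 5 and 1 of 4 genes tested were called in undifferentiated spermatogonia, differentiating spermatogonia and leptotene and zygotene spermatocytes, all of them Slc2a3, where 9.08%, 13.8% and 15.6% of all genes were called. In pachytene spermatocytes, diplotene and dividing spermatocytes and round spermatids edgeR called 0 of 3, 2 and 2 genes (2.25%, 1.15% and 8.15% of all genes). DESeq2 also called 0 there, and 1, 0 and 1 had an unadjusted edgeR p below 0.05. TO sums of diplotene and dividing spermatocytes (10 and 11 cells) and round spermatids (11 and 10 cells) were small, and the median log2 fold change of all genes tested in round spermatids was -1.21. Elongating spermatids were not found in TOs.

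**Figure D5:**
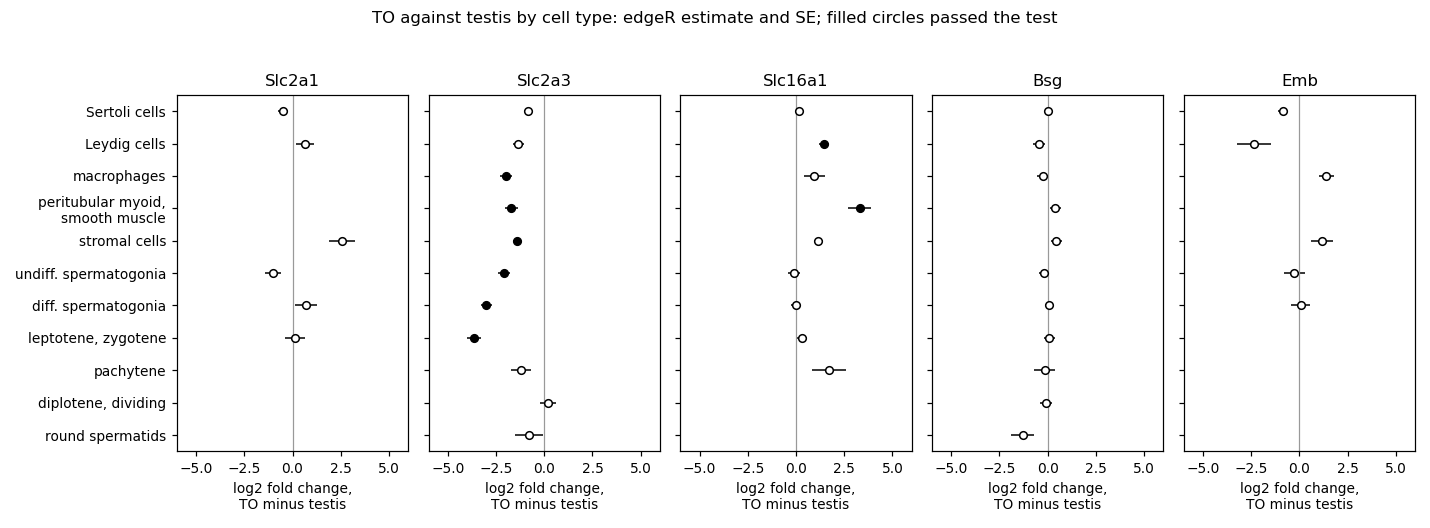
Log2 fold change of TOs minus testes by cell type for 5 genes, with the edgeR estimate and its SE. Filled circles passed the test, and types without a circle were not tested. Slc2a3 was called lower in 6 types and Slc16a1 higher in 2.

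Slc16a1 rose in TO Leydig cells, the androgen-producing cells of the interstitium. It stood at 186 and 228 CPM in TOs and at 67.9 and 74.0 CPM in testes, a log2 fold change of 1.47 ± 0.25 (edgeR adjusted p = 0.0054). Thinned to 1500 UMIs, 22.2% and 24.2% of TO Leydig cells and 9.15% and 7.92% of testis Leydig cells had a Slc16a1 UMI. In macrophages, where Slc16a1 was low, 2.60% and 1.73% of TO cells and 0.858% and 0.676% of testis cells had one. Leydig cells held 42.5% and 49.7% of the Slc16a1 UMIs of the TO cells with 28.0% and 26.1% of all UMIs. The fold change stayed between 1.25 and 1.62 under every setting tried, but the call was lost without TO replicate 2 or either testis library, with all genes tested, or with the background subtracted (adjusted p = 0.0133 to 0.0752).

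The identity of these cells differed between the libraries. The Leydig marker Cyp17a1 stood at 1162 and 81.5 CPM in TO Leydig cells and at 3812 and 11058 CPM in those of testes, and Star at 37.8 and 10.8 CPM against 399 and 719 CPM. The part of the Leydig markers in the Slc16a1 result was not tested. Also in Leydig cells, Slc2a3 (16.3 and 22.4 CPM against 52.6 and 41.2 CPM) and Emb (15.0 and 1.38 CPM against 45.1 and 33.6 CPM) were lower in both TO libraries without a call (edgeR adjusted p = 0.0111 and 0.0968). In all, 1 of the 5 genes tested was called, where 14.2% of all genes were (2.03% higher), and DESeq2 called Slc2a3 as well.

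In peritubular myoid and smooth muscle cells, which wrap the tubules and vessels, Slc16a1 had 16 and 57 UMIs in TOs and 3 and 3 in testes, or 34.8 and 78.2 CPM against 5.17 and 6.44 CPM. The log2 fold change was 3.30 ± 0.60 (edgeR adjusted p = 0.000818), and 2.56 without TO replicate 2 (adjusted p = 0.0507). Pooled over libraries, the TO level was 10.7 times the testis level, with an exact 95% counting interval of 4.69 to 30.1. With Slc2a3, 2 of the 3 genes tested in this type were called, against 28.0% of all genes (9.05% higher). This type was cluster 17 only (60 and 75 TO cells, 215 and 144 testis cells), led by Rgs5, Mustn1 and Tagln. Cluster 1, led by Acta2, Tnnt2 and Cnn1, stayed unnamed (2157 and 1609 TO cells, 472 and 281 testis cells). The calls do not cover its cells. Slc16a1 stood there at 93.9 and 87.8 CPM in TOs and at 37.5 and 61.5 CPM in testes, a difference that was not tested.

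In stromal cells Slc16a1 and Slc2a1 were higher in both TO libraries and missed the threshold. Slc16a1 stood at 111 and 84.3 CPM in TOs and at 38.8 and 54.4 CPM in testes (log2 fold change 1.16 ± 0.23, edgeR adjusted p = 0.0116). Slc2a1 stood at 32.4 and 14.7 CPM in TOs and at 6.47 and 1.55 CPM in testes, where it rested on 9 and 2 UMIs (2.59 ± 0.67, edgeR adjusted p = 0.0305). DESeq2 called both, at adjusted p = 0.00387 and 0.00403, and edgeR called both with all genes tested, with the replicate block and without TO replicate 2. Leaving out 1 library moved Slc2a1 between 1.87 and 4.02. By edgeR, 1 of the 6 genes tested in stromal cells was called, Slc2a3, against 17.4% of all genes. Over the 9 types in which Slc16a1 was tested, it was called higher in 2, Leydig and peritubular cells. The types come from the same 4 libraries.

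In macrophages, Emb stood at 102 and 55.7 CPM in TOs and at 38.6 and 27.2 CPM in testes (log2 fold change 1.40 ± 0.38, edgeR adjusted p = 0.0195), on 28 and 17 UMIs in testes. It passed the threshold when all genes with any UMI were tested, and without TO replicate 2 or testis replicate 1. Slc16a1 was low in macrophages of both conditions (13.6 and 9.84 against 6.89 and 6.41 CPM). Of the 4 genes tested 1 was called, Slc2a3, where 19.2% of all genes were.

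Endothelial cells of the testes were the richest in Slc2a1, at 225 and 250.3 CPM. The next type, Sertoli cells, stood at 26.5 and 25.3 CPM, and every other type at 29.3 CPM or below. These 132 and 87 cells held 44.6% and 53.4% of the Slc2a1 UMIs of the testis cells with 1.46% and 1.26% of all UMIs. Bsg was also highest there, at 2617 and 2774 CPM, above Leydig cells at 1367 and 1184 CPM. Among the types of TOs that were compared, stromal cells had the highest mean Slc2a1 level, at 23.5 ± 12.5 CPM (SD, n = 2), and their range overlapped that of Sertoli cells.

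Slc16a3 stayed near the limit of detection. It had 135 and 94 UMIs over all TO cells kept and 30 and 23 over all testis cells kept. Peritubular myoid and smooth muscle cells had most for their depth, at 8.70 and 11.0 CPM in TOs and 3.44 and 4.29 CPM in testes, and leptotene and zygotene spermatocytes had 0 UMIs in all 4 libraries. Macrophages had 7.56 and 4.03 CPM in TOs and 0 UMIs in testes. It could be tested in stromal cells only (3.94 and 2.12 CPM against 1.44 and 0.777 CPM, log2 fold change 1.49 ± 0.81, edgeR adjusted p = 0.211), where the testes held 2 and 1 UMIs.

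Other carriers of sugars and monocarboxylates (26 genes) were read from a fixed list. In Sertoli cells 14 were tested, 1 rose and 2 fell in TOs, with a median log2 fold change of 0.58 against 0.01 over all genes tested, of which 23.9% were called. Slc16a10, a carrier of aromatic amino acids, was at 7.57 and 7.99 CPM in TOs and at 1.15 and 0.724 CPM in testes (2.99 ± 0.50, edgeR adjusted p = 0.0071). Slc2a5, the fructose carrier, and Slc16a7 were lower by 5.01 and 4.14 on the log2 scale, and the same 2 genes were lower in Leydig cells, peritubular cells, stromal cells, spermatogonia and early spermatocytes of TOs. Both stood highest in diplotene spermatocytes or round spermatids of the testes, and in these types Ldhc and the haploid genes were lower in TOs too. The part of that RNA in these calls was not tested.

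Where Slc16a1 was nearly absent, Slc16a7 was present. It stood at 237 and 306 CPM in diplotene and dividing spermatocytes and at 362 and 578 CPM in round spermatids of the testes. Nptn, which encodes neuroplastin, a relative of basigin and escort of lactate carriers, was higher in TO pachytene spermatocytes (124 and 83.2 CPM against 12.7 and 13.2 CPM in testes, log2 fold change 2.79 ± 0.46, edgeR adjusted p = 0.0074). Of all genes tested there, 2.25% were called. The TO sums came from 55 and 15 cells, with 218154 and 108234 UMIs. Ldhc stood at 830 and 795 CPM in them, against 4792 and 4186 CPM in testes, and a match in stage was not tested.

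Of 15 enzymes and carriers of lactate and pyruvate, 14 were tested in Sertoli cells, of which 1 rose and 5 fell in TOs (median log2 fold change -0.54, against 0.01 over all genes, of which 23.9% were called). Ldha, the muscle-type lactate dehydrogenase that makes lactate from pyruvate, stood at 91.8 and 91.3 CPM in TO Sertoli cells and at 231 and 194 CPM in those of testes (-1.18 ± 0.15, edgeR adjusted p = 0.00318). It stood at 519 to 794 CPM in pachytene, diplotene and round cells of the testes, and was also called lower in spermatogonia and early spermatocytes of TOs. Ldhb, the heart-type enzyme, was not called in Sertoli cells but was higher in 6 other types of TOs, for example 40.3 and 31.0 CPM against 7.33 and 6.95 CPM in undifferentiated spermatogonia. Mpc1, a subunit of the mitochondrial pyruvate carrier, was higher in TO Sertoli cells (366 and 373 CPM against 81.1 and 87.6 CPM, 2.17 ± 0.17, edgeR adjusted p = 0.000979), whereas its partner Mpc2 was lower (181 and 131 CPM against 370.0 and 491 CPM). Mpc2 stood at 1147 to 1384 CPM in diplotene, round and elongating cells of the testes, and was called lower in TO Leydig cells, macrophages, peritubular cells and stromal cells as well. Ldhc, Ldhal6b and Pdha2, the other genes that fell in Sertoli cells, are known as germ cell genes. The haploid genes were lower in TO Sertoli cells too, and the part of germ cell RNA in the 5 lower calls was not tested.

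The change from testes to TOs was then compared between Sertoli cells and each of the 10 other types in the joint fit. In 4 of these tests 1 gene was called, Slc2a1 against stromal cells, Slc2a3 against differentiating spermatogonia and against leptotene and zygotene spermatocytes, and Bsg against round spermatids. Of all genes, 5.10% were called against Leydig cells, 2.79% against macrophages, 4.49% against peritubular cells, 3.92% against stromal cells, 4.00%, 3.68% and 3.82% against the stages from undifferentiated spermatogonia to zygotene spermatocytes, and 5.00%, 4.84% and 11.2% against pachytene, diplotene and round cells. In the 6 tests in which edgeR called 0 of the 6 genes, 1 to 4 had an unadjusted p below 0.05, and DESeq2 was not run on them.

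Genes with the most similar pattern were sought by Pearson's r of log2(CPM + 1) over 45 sums from the 4 libraries, among 12239 genes, as a description. The sums share libraries and depth, so no p is given. The nearest genes to Slc16a1 were Scap (0.899), the sterol sensor that escorts SREBP, and Tfdp2 (0.867), a partner of E2F factors, with 2410002F23Rik (0.878) between them. Emb was closest to Myo7a (0.844), an unconventional myosin, N4bp2l1 (0.829) and Gstm6 (0.79), a glutathione transferase. Slc2a3 was closest to Ccdc144b (0.892), Gm13817 (0.887) and Aqp9 (0.886), a channel for glycerol and water. Slc2a1 had Arl15 (0.818), Spata13 (0.811) and Fyn (0.8101), Slc16a3 had Fblim1 (0.714) and Pdgfrb (0.703) among its nearest, and Bsg had Rdx (0.674), Eif3e (0.661) and Palmd (0.652). Between the 6 genes the highest value was that of Slc16a1 with Slc2a1 (0.626) and the lowest that of Slc16a1 with Slc2a3 (-0.468).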

How the data were processed

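The authors deposited raw UMI counts per gene and barcode (Cell Ranger 7.1.0, mm10, per the submitters' processing notes). Barcodes with 1000 to 5000 genes, at most 20000 UMIs and 10% mitochondrial UMIs were kept. Doublets were removed as the top Scrublet scores (0.8% per 1000 barcodes). Cells were joined with Harmony, clustered with Leiden at resolution 1 (scanpy 1.11.5) and named from markers. The 6 genes, gene lists and tests were chosen with earlier results of these data known. Counts were summed per library and type. Types with 10 or more cells in each library were tested with edgeR 4.0.16 (quasi-likelihood, TMM, filterByExpr; R 4.3.3), calling a Benjamini-Hochberg adjusted p below 0.01 with an absolute log2 fold change above 1. Stages, and differences of change, were tested in 1 fit of 50 sums and 18617 genes with the library as a term. Named genes were the 6 genes and, from 2 lists of 26 carriers and 15 enzymes, called genes or those at 50 CPM. On simulated data the Sertoli test recovered 99% of 4-fold changes, the leptotene and zygotene test 93%, and the joint test 96% of 8-fold changes. These simulations held no RNA of other cells and changed no genes of very low count. All sums of the joint simulation came from 1 profile, so it did not cover differences in scaling between types. DESeq2 1.42.0 and other settings were alternatives. An exact permutation test of 2 against 2 libraries cannot go below p = 0.33, so none was used. The intervals of shares cover counting error only. Some genes that the naming rule selects are not reported here.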

Additional observations from a re-analysis of the deposited data

Results flagged for a closer look

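The change from testes to TOs differed between Sertoli cells and another cell type for 3 of the 6 genes, by the test of the difference itself in the joint edgeR fit. For Slc2a3 the log2 change in Sertoli cells exceeded that in leptotene and zygotene spermatocytes by 2.99 ± 0.51 (SE, adjusted p = 7.56e-05, where 3.82% of all genes were called) and that in differentiating spermatogonia by 2.45 ± 0.51 (adjusted p = 0.00109, 3.68%). The second was lost without TO replicate 2 or either testis library, at 1.95 to 2.04. Haploid-gene RNA and Ldhc were lower in TOs in all of these types, and their part in the differences was not tested.

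For Slc2a1 the change in Sertoli cells was below that in stromal cells, with a difference of -3.30 ± 0.63 (adjusted p = 0.00034, 3.92%). Stromal cells of the testes held 9 and 2 Slc2a1 UMIs, and the call was lost without TO replicate 1 (-2.85, adjusted p = 0.0449) or testis replicate 2 (-2.22, adjusted p = 0.0218).

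For Bsg the change in Sertoli cells exceeded that in round spermatids by 2.44 ± 0.44 (adjusted p = 6.16e-05, 11.2%). The TO round spermatids were 11 and 10 cells with 10 and 29 Bsg UMIs. With scaling to total UMIs the difference was 0.29 (adjusted p = 0.936).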

How the results depend on the processing

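Counts below are genes called between TOs and testes by edgeR, with the main count first. With ambient RNA subtracted (estimated from haploid genes in testis sums and from collagen genes in 5 TO types), the counts went from 3479 to 0 in Sertoli cells, 2197 to 0 in Leydig cells, 2080 to 0 in macrophages, 2488 to 50 in peritubular cells, 2701 to 0 in stromal cells, 957 to 1 in undifferentiated spermatogonia, 1663 to 0 in differentiating spermatogonia and 1741 to 0 in leptotene and zygotene spermatocytes, and 0 of the 6 carrier genes stayed called in any of these types. In Sertoli cells Slc2a3 then went to 5.602 and Slc16a1 to -0.63, and Bsg went to 0.187 in macrophages and 0.087 in undifferentiated spermatogonia. The subtracted profile stood in for ambient RNA and was that of all barcodes of the library, and values below 0 were set to 0. The estimate was 36.9% and 73.7% of UMIs in testis Sertoli cells. In the other testis types it was higher in replicate 1, for example 20.7% and 5.10% in Leydig cells and 42.2% and 12.1% in macrophages. Haploid genes stood at 10520 and 55549 CPM over all barcodes of these libraries. With nearly every call of any gene lost, this setting cannot decide on the carrier genes. Slc2a3 stood at 205 and 324 CPM over all barcodes of the testes and at 76.5 and 77.5 CPM in their Sertoli cells. The value of 5.602 thus rested on testis sums from which nearly all Slc2a3 UMIs had been subtracted. The cause of the other reversals was not tested.

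With all genes with any UMI tested, the counts were 0 in Leydig cells (0 carrier genes), 4914 in stromal cells (3 carrier genes), 1448 in undifferentiated spermatogonia, 2721 in leptotene and zygotene spermatocytes and 1104 in pachytene spermatocytes (196 in the main test), and 3 carrier genes were called in macrophages. Slc16a1 was then 0.061 in differentiating spermatogonia, and Slc2a3 -0.039 in diplotene spermatocytes. DESeq2 called 64 genes in diplotene spermatocytes (98 by edgeR), 2 carrier genes in Leydig cells and 3 in stromal cells, and gave -0.002 for Bsg in Sertoli cells. Without doublet removal 2 carrier genes were called in Leydig cells and 2 in stromal cells, with Bsg at -0.010 in Sertoli cells and Slc16a1 at 0.028 in undifferentiated spermatogonia. Without upper limits on cells 1054 genes were called in pachytene and 239 in diplotene spermatocytes, with Slc16a1 at 0.094 and Emb at -0.076 in differentiating spermatogonia and Bsg at 0.037 in pachytene spermatocytes. At Leiden resolution 2 the pachytene count was 103 and 2 carrier genes were called in Leydig cells, with Slc16a1 at 0.007 and 0.110 in undifferentiated and differentiating spermatogonia and Bsg at -0.01 in leptotene and zygotene spermatocytes. Without Harmony Slc16a1 was -0.016 in Sertoli cells. These reversals were all of values that were not called. Where this section gives carrier genes without a count of all genes, they cannot be set against the share of all genes under that setting. In the main edgeR test that share was 14.2% in Leydig cells, 19.2% in macrophages and 17.4% in stromal cells.

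Same-numbered TO and testis libraries share only a number: their deviations correlated at -0.01 to 0.16 over 2 pairs. With the replicate block the counts were 4065 in stromal cells (3 carrier genes), 750 in pachytene spermatocytes and 313 in round spermatids (1004 without the block), 2 carrier genes were called in macrophages, and Slc16a1 was 0.005 in differentiating spermatogonia.

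Leaving out 1 library at a time gave 977 to 4217 genes in Sertoli cells (0 to 1 carrier genes), 1567 to 2804 in stromal cells (1 to 3), 498 to 1330 in undifferentiated spermatogonia, 389 to 1385 in differentiating spermatogonia, 1361 to 2689 in leptotene and zygotene spermatocytes, 80 to 1604 in pachytene spermatocytes (0 to 1), 0 to 36 in diplotene spermatocytes and 10 to 673 in round spermatids. Carrier genes called ranged from 0 to 2 in Leydig cells, 1 to 2 in macrophages and 1 to 2 in peritubular cells. In Sertoli cells Bsg ranged from -0.041 to 0.09 and Emb from -1.12 to -0.61. Ranges that crossed 0 were also those of Slc2a1 in Leydig cells (-0.043 to 1.14), differentiating spermatogonia (-0.037 to 1.44) and leptotene and zygotene spermatocytes (-0.14 to 0.29), Slc16a1 in undifferentiated (-0.62 to 0.20) and differentiating spermatogonia (-0.36 to 0.36), Emb in undifferentiated (-2.12 to 0.34) and differentiating spermatogonia (-0.59 to 0.50), Bsg in differentiating spermatogonia (-0.041 to 0.23), pachytene (-0.95 to 0.30) and diplotene spermatocytes (-0.27 to 0.20), and Slc2a3 in diplotene spermatocytes (-0.31 to 0.97).

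Among the joint comparisons, scaling to total UMIs, chosen after seeing the data, gave 28 carrier calls within testes against 32, and turned Slc2a3 between Sertoli cells and elongating spermatids to 0.17. Depth limited the TO stages from pachytene on most, with 10 to 55 cells a library.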
